A study of Mus musculus with 9 samples.

Results

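Asb4, Peg10, Sgce and Ppp1r9a are 4 genes of a single imprinted domain on mouse chromosome 6, and their expression was followed here through the mesenchyme of forelimb buds. They were chosen by gene symbol, as 4 of the 32289 features counted in every library, and all 4 passed the filter on low counts in the mesenchyme. Asb4 entered the list because the study had singled it out on these same libraries, as a mesenchyme-enriched gene of its peripheral progenitor cells with a changed level in mutants. Its pattern over lineages and positions and its difference between mutants and wild types are therefore given as a description with no test. Peg10, Sgce and Ppp1r9a were listed for their place in the domain, and their values were tested. The list was nevertheless drawn up with earlier results of these data known.

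At an imprinted gene, the copies inherited from the mother and from the father carry different DNA methylation or chromatin marks, so that transcripts come mainly from 1 parental allele. Asb4 encodes a protein with ankyrin repeats and a SOCS box that acts as the substrate receptor of an E3 ubiquitin ligase, and it is transcribed mainly from the maternal allele. Peg10 derives from a retrotransposon, is needed for placental development and is transcribed from the paternal allele, as is its neighbour Sgce, which encodes the membrane protein epsilon-sarcoglycan. Ppp1r9a encodes neurabin I, which binds actin filaments and protein phosphatase 1, and its maternal bias is known mainly from extraembryonic tissue. The UMIs analysed here are counts of 3′ ends per gene, and they hold no information on the parental allele.

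The samples were pairs of forelimb buds of Swiss Albino-bred mouse embryos at E10.75 (37 to 39 somites), with 1 pair per 10x Genomics 3′ v3.1 library and 3 libraries per genotype. Wildtype (Wt) embryos were compared with EC1CRM8Δ/Δ (E1C8Δ/Δ) and EC1CRM5Δ/Δ (E1C5Δ/Δ) embryos. Both mutants are homozygous for deletions of enhancers, the cis-regulatory modules, in the landscape of Grem1, which encodes an antagonist of BMP signalling. In E1C8Δ/Δ the CRM8 element is deleted in cis to the EC1 deletion, and the labels of these 3 genotypes name no Cre or reporter transgene.

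In the order of the chromosome (GRCm38, GENCODE M21), Sgce lies at chr6:4674350-4747207 on the minus strand, Peg10 at chr6:4747306-4760517, Ppp1r9a at chr6:4902917-5165661 and Asb4 at chr6:5383386-5433022, the last 3 on the plus strand. The annotated start sites of Sgce and Peg10 face away from each other and lie 99 bases apart, whereas 622.869 kb separate the end of Peg10 from the start of Asb4. The 4 genes span 758.673 kb in all, of which Ppp1r9a takes 262.745 kb. The RefSeq promoter windows of Asb4 and Ppp1r9a, each 250 bases before to 50 bases after a start site, are shown because CpG dinucleotides are where DNA methylation marks sit. They are taken from GRCm38.p6, plus strand, at chr6:5383136-5383435 for Asb4 and at chr6:4903061-4903360 for Ppp1r9a, and each CG is in capitals. The windows of Peg10 and Sgce were not analysed here.
Asb4: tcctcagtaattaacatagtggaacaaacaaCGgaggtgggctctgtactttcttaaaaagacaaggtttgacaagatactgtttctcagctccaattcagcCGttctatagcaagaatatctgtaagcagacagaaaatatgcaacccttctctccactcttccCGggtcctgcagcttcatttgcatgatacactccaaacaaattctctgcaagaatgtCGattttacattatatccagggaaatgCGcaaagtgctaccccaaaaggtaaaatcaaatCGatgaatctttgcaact
Ppp1r9a: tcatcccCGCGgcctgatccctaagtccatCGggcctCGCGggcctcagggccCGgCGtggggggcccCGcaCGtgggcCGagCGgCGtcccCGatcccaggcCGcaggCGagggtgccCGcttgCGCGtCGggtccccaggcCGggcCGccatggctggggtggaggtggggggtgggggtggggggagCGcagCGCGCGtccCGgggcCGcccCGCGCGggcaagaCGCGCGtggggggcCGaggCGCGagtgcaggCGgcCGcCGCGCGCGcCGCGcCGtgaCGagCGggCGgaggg
The letters CG, which read the same on both strands and cannot overlap each other, occur 6 times in the Asb4 window, with a G and C content of 40.3%. This is close to the median of 7 over 32851 promoter windows of that length, and 56.4% of them hold at least as many. The Ppp1r9a window holds 48 CG and has a G and C content of 82%, and 1.22% of windows hold at least as many. The printed Ppp1r9a window lies downstream of the GENCODE start of the gene given above. A second RefSeq start of Ppp1r9a, whose window at chr6:4902725-4903024 covers that GENCODE start, has 10 CG, and 43.5% of windows hold at least as many. A second start of Asb4 has 8.

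Between 604 and 9917 cells per library passed the filters, of which 443 to 6471 were gated as mesenchymal, with 15626761 to 248470786 UMIs in the mesenchyme of a library. A cell counted as mesenchymal with UMIs of at least 5 of 8 markers, among them Prrx1, Tbx5 and Pdgfra, and of fewer than 3 markers of any other lineage. Within the mesenchyme, 10 positions were gated on marker genes that include none of the 4 members, and a position held 28 to 1210 cells per library. The gates are ranges of a score rather than types, and 17.8% of gated cells had their best and next best score within 0.25 of each other. E1C8Δ/Δ replicate 1 and Wt replicate 3 were the smallest libraries. Grem1, the targeted gene, had a level of 29.9 to 44.1 CPM (UMIs of the gene in the gated cells, scaled to a fixed total of all their UMIs) in Wt mesenchyme and 11.4 to 25.7 CPM in the mutants. Xist and Y-linked genes marked each Wt library as male and 2 of 3 libraries of each mutant as female, so that sex moved with genotype between mutants and Wt but not between the mutants. Adding sex to the fits left each call on Peg10, Sgce, Ppp1r9a and Asb4 in the mesenchyme and at positions as it was.

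Asb4 varied more between positions than the other members, with its maximum in the peripheral gate (Msx1, Lhx2, Lhx9, Bambi, Spry1 and Etv4) and its minimum in the posterior gate (Shh, Hand2, Hoxd12, Ptch1 and others). In peripheral cells Asb4 reached 1119, 938 and 1114 CPM in Wt replicates 1 to 3, 802, 979 and 955 CPM in E1C8Δ/Δ and 855, 896 and 1236 CPM in E1C5Δ/Δ. In posterior cells it measured 50.2, 81.3 and 82.0 CPM in Wt, 130, 189 and 126 CPM in E1C8Δ/Δ and 53.9, 71.7 and 92.5 CPM in E1C5Δ/Δ. Peripheral cells were above posterior cells in 9 of 9 libraries, without overlap of any library's values, and by 3.44 ± 0.67 (SD) on the log2(CPM + 1) scale, which corresponds to 5.15-fold to 21.9-fold per library. That span was 15.0-fold in Wt, 6.20-fold in E1C8Δ/Δ and 13.7-fold in E1C5Δ/Δ.

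Between these ends, the mean Asb4 level over 9 libraries was 532 ± 65.6 CPM (SD) in the zeugopod gate, 451 ± 61.7 in the chondrogenic core, 411 ± 57.8 in proximal scapular cells and 381 ± 59.8 in anterior proximal cells. It was 337 ± 62.1 CPM in the distal autopod, 251 ± 50.1 in the Sostdc1 and Hgf gate, 231 ± 47.9 in dorsoventral cells and 198 ± 84.5 in the proximal posterior Osr1 gate. The Osr1 gate scored Osr1, Dkk1, Tbx3, Alcam, Epha3 and Fgfr2 together and did not require a UMI of Osr1. Along this order, neighbouring levels of Asb4 were ranked the same way in 7 to 9 of 9 libraries. On the log2(CPM + 1) scale, peripheral cells lay 1.79 ± 0.29 (SD, n = 9) above the mean of the other positions in the same library. Of the 7999 genes measured this way, 0.325% differed more from the other positions in peripheral cells. The posterior difference of Asb4 was -2.02 ± 0.48, and 0.225% of genes differed more there. The study chose Asb4 on these libraries as a signature gene of its peripheral progenitor cells. These shares therefore describe that choice and are not a test. The genes of the gates were not left out of the 7999.

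**Figure D1:**
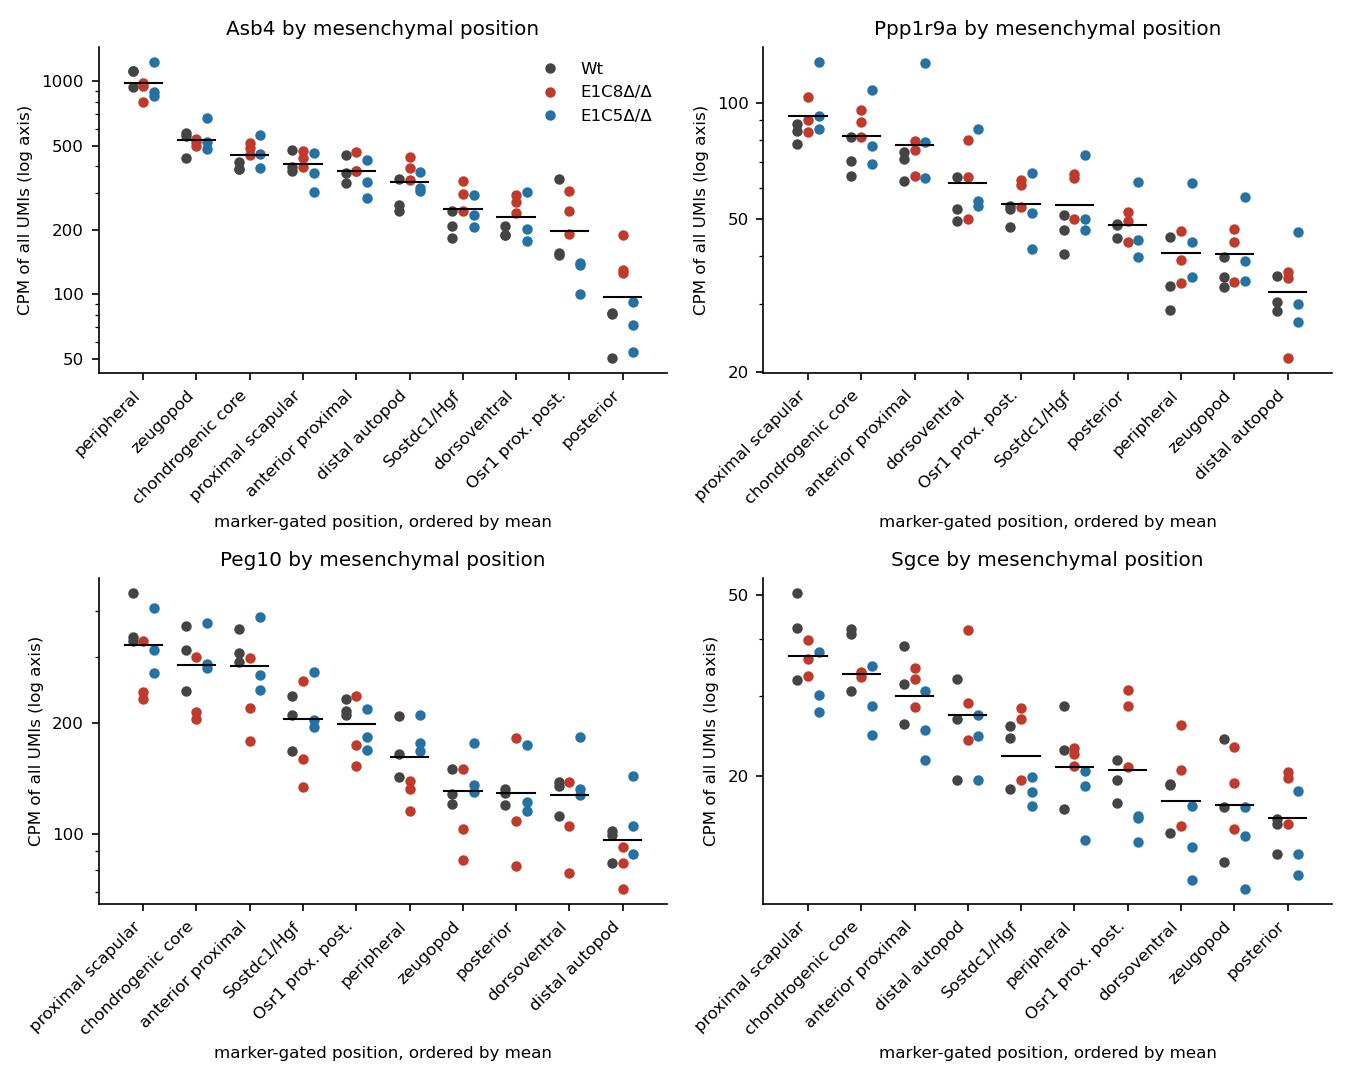
Level of Asb4, Ppp1r9a, Peg10 and Sgce (CPM of all UMIs, log axis) at each of the 10 marker-gated positions, ordered by mean, with 1 point per library coloured by genotype and a bar at the mean of the 9 libraries. Asb4 runs from 988 CPM in peripheral to 97.4 CPM in posterior cells, whereas the other 3 genes are highest in proximal scapular cells.

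Peg10, Sgce and Ppp1r9a shared a maximum that Asb4 did not have, in proximal scapular cells (gated on Gsc, Creb5, Sox8, Meis1, Irx3 and others), followed for all 3 by the chondrogenic core and anterior proximal cells. Peg10 measured 448, 340 and 333 CPM in proximal scapular cells of Wt replicates 1 to 3, 332, 242 and 231 CPM in E1C8Δ/Δ and 272, 314 and 408 CPM in E1C5Δ/Δ. In the distal autopod it measured 102, 99.6 and 83.7 CPM in Wt, 83.8, 92.4 and 71.1 CPM in E1C8Δ/Δ and 88.4, 106 and 144 CPM in E1C5Δ/Δ. No proximal scapular value of Peg10 came down to a distal autopod value, and the span between the positions was 3.32-fold on average.

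The differences of these genes from the mean of the other positions in the same library were tested by exact sign flips over 9 libraries (two-sided, smallest possible p 0.00391), with Benjamini-Hochberg adjustment over all genes at that position. Of 30 such tests on Peg10, Sgce and Ppp1r9a, 25 passed an adjusted p of 0.05, beside 43.8% of the tests of all genes. In proximal scapular cells Peg10 was higher by 0.93 ± 0.14 (SD) on the log2(CPM + 1) scale, Ppp1r9a by 0.82 ± 0.11 and Sgce by 0.71 ± 0.16, each in 9 of 9 libraries with an exact permutation p of 0.00391 and an adjusted p of 0.00959. These differences were large among all genes, since 2.06%, 2.55% and 3.41% of genes, in the same order, differed more there. The tests that did not pass were those of all 3 genes in the Osr1 gate and of Sgce and Ppp1r9a in the Sostdc1 and Hgf gate.

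The distal autopod (gated on Hoxa13, Hoxd13, Tfap2b, Jag1 and others) separated Sgce from its neighbours. Peg10 was lower there than at the other positions by 0.99 ± 0.20 on the log2(CPM + 1) scale, and Ppp1r9a was lower by 0.85 ± 0.28. Sgce was instead higher by 0.23 ± 0.20, in 9 of 9 libraries and with the same adjusted p of 0.0110 by the exact sign-flip test, although 28.6% of genes differed more. When Hoxa13, Hoxd13 and the other genes with changes named by the study were left out of the gates, the Sgce difference was 0.13 ± 0.21 and positive in 6 of 9 libraries (exact permutation p = 0.117). Sgce was lowest in posterior cells, at 12.1 to 20.4 CPM against 27.6 to 50.5 CPM in proximal scapular cells, a 2.20-fold span. Ppp1r9a ranged from 21.7 to 46.1 CPM in the distal autopod and from 78.3 to 128 CPM in proximal scapular cells, a 2.84-fold span.

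Several neighbours in the order of levels did not separate beyond the spread between libraries. Peg10 in the chondrogenic core (287 ± 59.5 CPM) and in anterior proximal cells (284 ± 64.7 CPM) was ranked that way in 6 of 9 libraries. Its levels in zeugopod (131 ± 26.9 CPM), posterior (130 ± 31.0 CPM) and dorsoventral cells (128 ± 28.5 CPM) overlapped as well. For Ppp1r9a, peripheral (40.8 ± 9.83 CPM) and zeugopod cells (40.3 ± 7.70 CPM) could not be ranked, with peripheral cells higher in 4 of 9 libraries. For Sgce, the dorsoventral, zeugopod and posterior means were 17.5, 17.2 and 16.1 CPM, with SDs of 2.92 to 4.34 CPM.

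Over the 30 sums of 10 positions in 3 Wt libraries, each centred within its library, the log2(CPM + 1) of Peg10 followed Ppp1r9a with a Pearson r of 0.83 and Sgce with 0.74, and Sgce and Ppp1r9a with 0.59. Asb4 had an r of 0.42 with Sgce, 0.29 with Peg10 and -0.06 with Ppp1r9a. These correlations are descriptions, because the 10 sums of a library come from 1 embryo and share its depth. Many genes outside the domain lay closer to a member than the other members did, since among 8014 genes ranked by their r with Peg10, Ppp1r9a had rank 247, Sgce rank 694 and Asb4 rank 2813. Ranked by r with Ppp1r9a, Sgce had rank 1432.

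Among 8014 genes, those most like Asb4 over the same sums were Gli3 (r = 0.94), the zinc finger transcription factor of Hedgehog signalling, Scamp1 (0.85), a carrier protein of secretory vesicles, and Lhx9 (0.80), a LIM homeodomain factor that is itself a gene of the peripheral gate. Gli3 measured 287, 192 and 168 CPM in peripheral cells of Wt replicates 1 to 3 and 78.4, 61.1 and 52.4 CPM in posterior cells. It therefore ran from the same maximum to the same minimum as Asb4.

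For Peg10 the most similar gene of all 8014 was Casd1 (r = 0.95), a sialic acid O-acetyltransferase gene on the other side of Sgce at chr6:4600839-4643355. Reck, an anchored inhibitor of metalloproteinases, was nearly tied with it (0.9507 against 0.9508), so the first place of Casd1 does not set it apart. Casd1 measured 202, 201 and 174 CPM in proximal scapular cells of the Wt libraries and 63.1, 72.9 and 60.1 CPM in the distal autopod, the positions between which Peg10 spanned its own range. Casd1 had an r of 0.89 with Ppp1r9a (rank 32), 0.79 with Sgce (rank 26) and 0.22 with Asb4 (rank 1823). The genes most like Ppp1r9a were Smarcc2 (0.95), a chromatin remodelling subunit, Myh10 (0.93), a nonmuscle myosin heavy chain, and Pigc (0.93), an enzyme of GPI anchor synthesis. The genes most like Sgce were Rai14, Tmem176b and Lpp (0.84 each).

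**Figure D2:**
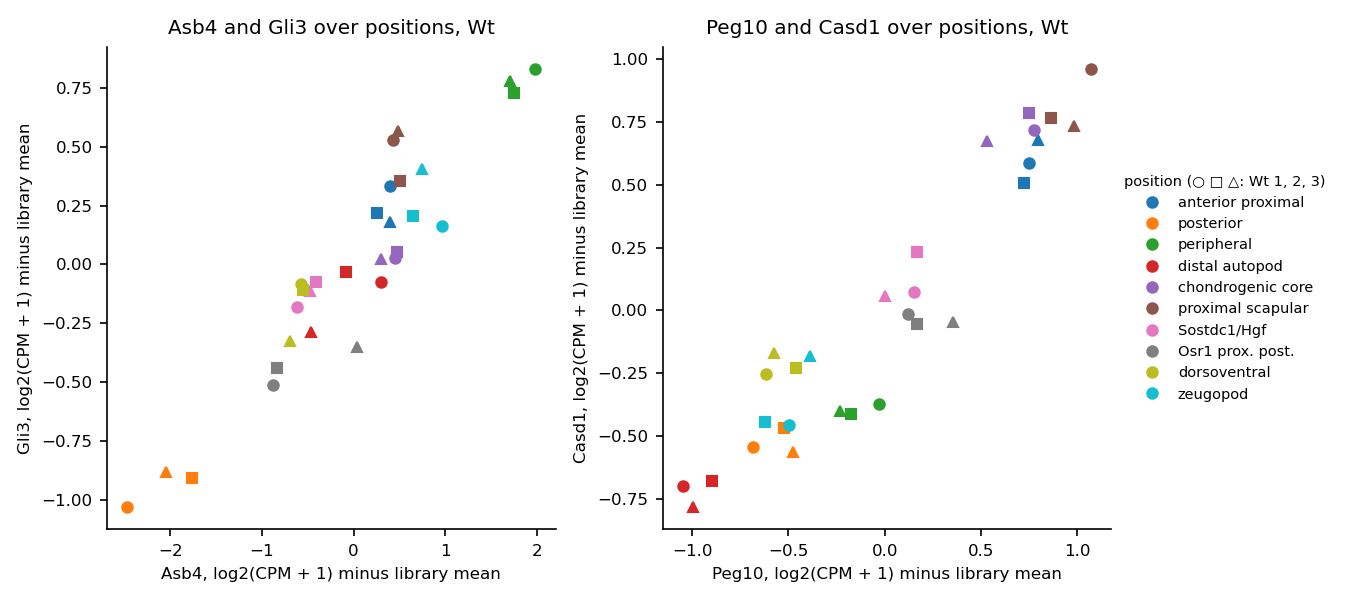
Asb4 against Gli3 and Peg10 against Casd1 in Wt mesenchyme, as log2(CPM + 1) minus the library's mean over positions, with 1 point per position (colour) and library (shape). Peripheral and posterior cells are the ends of the first relation (r = 0.94), and proximal scapular and distal autopod cells those of the second (r = 0.95).

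Outside the mesenchyme, Asb4 was lower in every other lineage in each library with at least 20 such cells. Its lowest, median and highest level was 99.6, 142 and 207 CPM in muscle progenitors (8 libraries), 162, 214 and 276 CPM in endothelium (7 libraries) and 7.09, 29.8 and 60.4 CPM in epithelium (6 libraries). On the log2(CPM + 1) scale this put Asb4 below the mesenchyme of the same library by 1.55 ± 0.33 (SD) in muscle, 0.89 ± 0.21 in endothelium and 3.89 ± 0.97 in epithelium. In erythroid cells (7 libraries) Asb4 measured 8.27, 21.2 and 31.0 CPM.

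Peg10, Sgce and Ppp1r9a were lower in muscle progenitors than in mesenchyme in 8 of 8 libraries, by 0.40, 0.51 and 0.73 on the log2(CPM + 1) scale (exact sign-flip p = 0.00781, adjusted p = 0.0158 for each). So were 3 of 3 in erythroid cells, by 3.76, 3.50 and 4.08 in 7 of 7 libraries (exact sign-flip p = 0.0156, adjusted p = 0.0174). These calls stand beside 64.5% of all genes called in muscle and 93.9% in erythroid cells, in either direction. In endothelium, where 79.4% of genes were called, Sgce was higher than in mesenchyme by 0.52 ± 0.28 in 7 of 7 libraries (27.2 to 36.7 CPM; exact sign-flip p = 0.0156, adjusted p = 0.0213). Ppp1r9a was lower there by 0.25 ± 0.20 in 6 of 7 libraries (adjusted p = 0.0393 by the exact test), and Peg10 differed by 0.13 ± 0.17 (adjusted p = 0.109). In epithelium Peg10 measured 31.8, 62.4 and 125 CPM as lowest, median and highest level, and its difference of -1.62 ± 0.57 in 6 of 6 libraries had an exact p of 0.0313 (adjusted p = 0.0559), and 0 genes passed the adjustment there. Ppp1r9a was lower in epithelium by 0.38 ± 0.23 in 6 of 6 libraries with the same exact p, and Sgce differed by 0.17 ± 0.17, higher in 5 of 6 libraries (exact p = 0.0625). In 5 libraries with myeloid cells no p below 0.0625 is possible.

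With each mesenchymal cell thinned to 10000 UMIs, Asb4 was detected in 74.6% to 89.1% of cells of a library, Peg10 in 67.4% to 85.3%, Ppp1r9a in 32.2% to 49.4% and Sgce in 15.3% to 25.9%. Thinning left out 27 to 616 shallower cells per library, and without it the shares were 87.1% to 96.0% for Asb4, 85.5% to 97.6% for Peg10, 58.7% to 80.2% for Ppp1r9a and 37.0% to 62.6% for Sgce. In the 7 libraries with at least 20 erythroid cells, the background for these shares, thinned erythroid cells had a UMI of Asb4 in 8.83% to 28.4%, of Peg10 in 6.71% to 22.0%, and of Ppp1r9a and Sgce in at most 4.55% and 2.03% of cells. The other libraries, Wt replicate 3 and E1C8Δ/Δ replicate 1, held 16 and 8 erythroid cells, with Asb4 in 6.25% and 25.0%, Peg10 in 6.25% and 0%, Sgce in 6.25% and 0% and Ppp1r9a in 0% of both. The shares in mesenchyme were above this background for all 4 genes. Median UMIs per cell were 16339 to 47591 in the mesenchymal cells of 9 libraries and 18074 to 38427 in the erythroid cells of those 7. Within the mesenchyme, 96.2% to 100% of thinned peripheral cells had a UMI of Asb4 against 31.5% to 66.3% of posterior cells, and these ranges did not overlap.

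The members were then compared between the mutants and Wt over all mesenchymal cells. Over all mesenchymal cells Asb4 measured 389, 346 and 385 CPM in Wt, 402, 481 and 432 CPM in E1C8Δ/Δ and 308, 407 and 540 CPM in E1C5Δ/Δ. The 3 E1C8Δ/Δ libraries were above all Wt libraries, while E1C5Δ/Δ held both the lowest and the highest value of the 9. The log2 fold change of the mutants together against Wt was 0.21 ± 0.13 (SE), and from 0.13 without E1C5Δ/Δ replicate 3 to 0.29 without E1C5Δ/Δ replicate 1. When each position had equal weight, the Wt mean was 377 ± 39.0 CPM (SD) and the mutant mean 393 ± 53.6 CPM, a log2 difference of 0.06. The share of peripheral cells in the mesenchyme was 7.37% to 8.74% in Wt and 6.58% to 14.1% in the mutants, or 6.54% to 7.38% and 4.62% to 12.1% with gates that omit genes named as changed. The part of this share in the Asb4 level was not tested. Median UMIs per mesenchymal cell were 29640, 33708 and 47591 in Wt replicates 1 to 3. In E1C8Δ/Δ they were 29992, 16339 and 22926. The part of depth in any difference between E1C8Δ/Δ and Wt was not tested.

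Peg10 over all mesenchymal cells measured 224, 202 and 174 CPM in Wt, 207, 163 and 134 CPM in E1C8Δ/Δ and 176, 186 and 242 CPM in E1C5Δ/Δ. Sgce measured 25.3, 20.1 and 28.7 CPM in Wt, 28.9, 27.6 and 22.2 CPM in E1C8Δ/Δ and 17.0, 18.95 and 22.2 CPM in E1C5Δ/Δ. Ppp1r9a measured 56.6, 50.5 and 48.9 CPM in Wt, 59.2, 64.7 and 51.4 CPM in E1C8Δ/Δ and 53.3, 49.7 and 77.6 CPM in E1C5Δ/Δ. The genotypes overlapped for each of these genes, and E1C5Δ/Δ replicate 3 had the highest value of all libraries for Asb4, Peg10 and Ppp1r9a alike.

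None of Peg10, Sgce and Ppp1r9a passed an adjusted p of 0.05 for both mutants against Wt, beside 2.07% of 16089 genes tested (edgeR quasi-likelihood test with Benjamini-Hochberg adjustment). None had an unadjusted p under 0.05 either, and DESeq2 called 0 of them. The log2 fold changes were -0.12 ± 0.12 (SE) for Peg10, -0.11 ± 0.10 for Sgce and 0.20 ± 0.11 for Ppp1r9a, with adjusted p of 0.644, 0.596 and 0.371. Leaving out 1 library moved Peg10 between -0.22 (without Wt replicate 3) and -0.05 (Wt replicate 1), Sgce between -0.22 (Wt replicate 2) and -0.01 (Wt replicate 3) and Ppp1r9a between 0.12 (E1C5Δ/Δ replicate 3) and 0.25 (Wt replicate 1). With embryo sex in the fit they were -0.28, -0.19 and 0.03. Against Wt, E1C8Δ/Δ (8.86% of genes called) gave adjusted p of 0.223, 0.804 and 0.546 for these genes, and E1C5Δ/Δ (1.4% called) gave 0.920, 0.317 and 0.426. Between the mutants (9.49% of genes called), the log2 fold change of E1C8Δ/Δ against E1C5Δ/Δ was -0.35 ± 0.14 for Peg10 (adjusted p = 0.147), 0.35 ± 0.12 for Sgce (adjusted p = 0.0912) and -0.12 ± 0.13 for Ppp1r9a (adjusted p = 0.609). Asb4 had a log2 fold change of -0.00 ± 0.15 in this contrast (adjusted p = 0.993). The study chose Asb4 for changes shared by both mutants, so this p is not independent of that choice. Thinned shares of cells with a UMI differed between mutants and Wt by 0.624 percentage points for Peg10, -1.36 for Sgce and 5.07 for Ppp1r9a, with p of 0.881, 0.595 and 0.190 by a two-sided exact permutation test over 84 splits. For Asb4 this difference was 6.55 points, and 2.23 points without thinning.

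**Figure D3:**
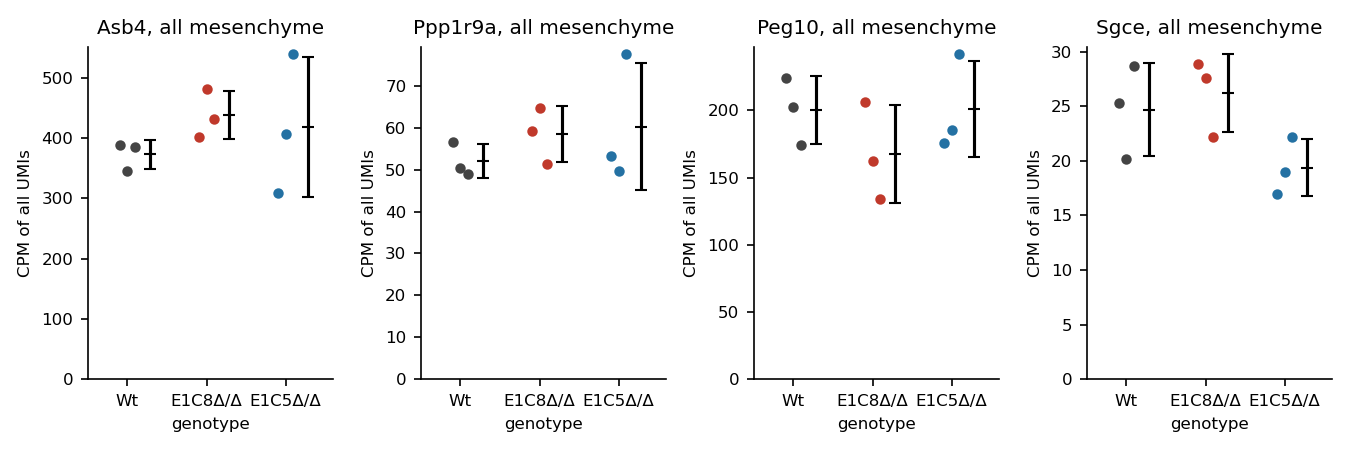
Level of the 4 genes over all mesenchymal cells (CPM of all UMIs), with 1 point per library and the mean ± SD of the 3 libraries of each genotype beside them. The genotypes overlap for Ppp1r9a, Peg10 and Sgce, and E1C8Δ/Δ lies above Wt for Asb4 (402 to 481 against 346 to 389 CPM).

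At single positions, the Asb4 log2 fold change of both mutants against Wt was 0.56 ± 0.20 (SE) in posterior cells, 0.36 ± 0.12 in the distal autopod, 0.35 ± 0.12 in dorsoventral cells, 0.33 ± 0.12 in Sostdc1 and Hgf cells and 0.27 ± 0.10 in the chondrogenic core. It was 0.06 ± 0.10 in the zeugopod, -0.00 ± 0.12 in anterior proximal, -0.03 ± 0.12 in proximal scapular, -0.11 ± 0.11 in peripheral and -0.29 ± 0.22 in Osr1-gate cells. With a library left out, the posterior value was 0.32 (without Wt replicate 1) to 0.71 (Wt replicate 2) and the peripheral value -0.18 (E1C5Δ/Δ replicate 3) to -0.07 (E1C8Δ/Δ replicate 1). The distal autopod value therefore lay within the SE of those in dorsoventral, Sostdc1 and Hgf and core cells. In the distal autopod Asb4 measured 347, 264 and 247 CPM in Wt, 393, 442 and 344 CPM in E1C8Δ/Δ and 314, 305 and 376 CPM in E1C5Δ/Δ. The gate held 7.10% to 8.76% of mesenchymal cells in Wt and 3.44% to 6.32% in the mutants, without overlap, or 6.43% to 8.21% and 5.50% to 8.58% with gates that omit genes named as changed, and the part of this share in the level was not tested. The E1C5Δ/Δ values overlapped those of Wt, and those of E1C8Δ/Δ overlapped at 344 against 347 CPM. In posterior cells the log2 fold change was 1.06 ± 0.22 for E1C8Δ/Δ, all of whose libraries lay above all of Wt, and 0.06 ± 0.22 for E1C5Δ/Δ. Depth per mesenchymal cell was lower in E1C8Δ/Δ replicates 2 and 3 than in every Wt library. The part of depth in this difference was not tested. In Osr1-gate cells Asb4 measured 153, 156 and 350 CPM in Wt, 246, 305 and 192 CPM in E1C8Δ/Δ and 101, 137 and 140 CPM in E1C5Δ/Δ, where the E1C5Δ/Δ values lay below all others.

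**Figure D4:**
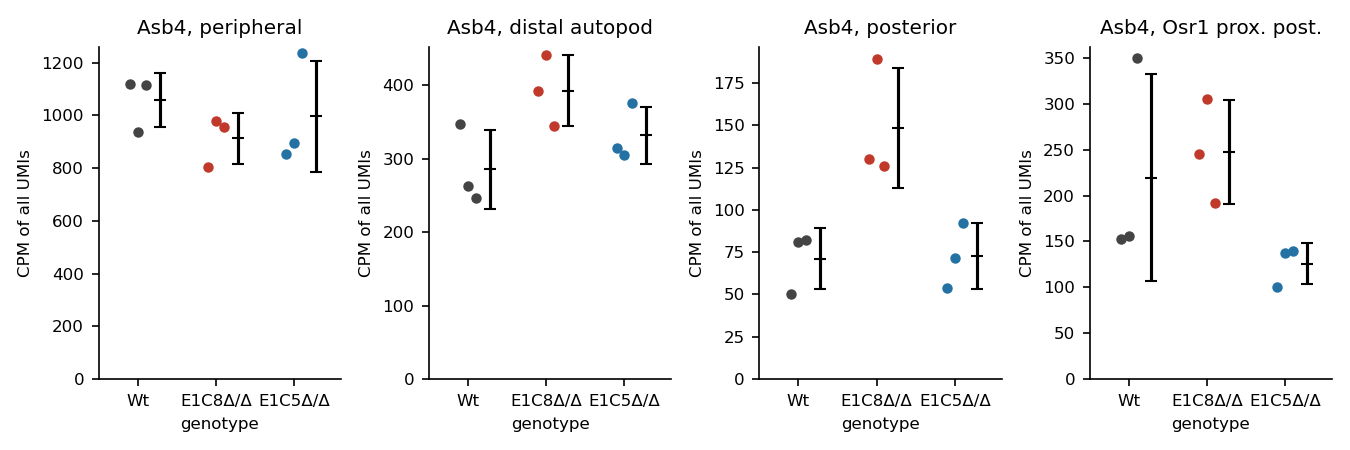
Asb4 (CPM of all UMIs) at 4 positions by genotype, with 1 point per library and the mean ± SD of 3 libraries. E1C8Δ/Δ is above Wt and E1C5Δ/Δ in posterior cells (126 to 189 against 50.2 to 92.5 CPM), and the genotypes overlap in peripheral cells.

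The difference of the genotype effect from that in peripheral cells was fitted as an interaction with the library as a block. For Asb4 it was 0.45 ± 0.10 (SE, log2) in the distal autopod and 0.64 ± 0.25 in posterior cells, and these values describe the pattern for which the study chose it. The posterior value pools unlike mutants. Against Wt, the log2 fold change of E1C8Δ/Δ was 1.06 in posterior and -0.19 in peripheral cells, and that of E1C5Δ/Δ was 0.06 and -0.04. The posterior value was 0.34 without Wt replicate 1, 0.42 without E1C8Δ/Δ replicate 2 and 0.91 without Wt replicate 2. None of Peg10, Sgce and Ppp1r9a passed an adjusted p of 0.05 in the distal autopod (1.4% of 12080 genes called) or in posterior cells (0.0653% of 12242 genes called), and none had an unadjusted p under 0.05. Their values ranged from -0.16 to 0.16 in the distal autopod and from -0.23 to 0.21 in posterior cells, with adjusted p of 0.568 to 0.820 and 0.866 to 0.981 (edgeR quasi-likelihood test). In the distal autopod, Sgce turned from 0.12 to -0.13 with gates that omit genes named as changed and to -0.04 with doublets kept, and with those gates Peg10 measured 0.23 (adjusted p = 0.119). Ppp1r9a was -0.28 there without E1C8Δ/Δ replicate 3 (adjusted p = 0.243) and -0.40 in posterior cells without Wt replicate 1 (adjusted p = 0.634), where Peg10 turned from 0.06 to -0.08. Sgce in posterior cells was 0.36 without Wt replicate 2 (adjusted p = 0.979), and Peg10 in the distal autopod was 0.05 without Wt replicate 1. Of other genes that the study names beside Asb4, the difference in the distal autopod was 0.44 for Lhx2, 1.10 for Msx1, 1.59 for Msx2 and 1.76 for Rspo4. The study names these genes too as raised in its autopodial-digit cluster and unchanged in its anterior clusters, on these same libraries. Their values therefore describe that choice and give no separate support. Lhx2 and Msx1 are genes of the peripheral gate. With those alternative gates, the Asb4 difference in the distal autopod was 0.66 ± 0.07, beside 0.51 for Lhx2, 0.77 for Msx1, 1.26 for Msx2 and 0.99 for Rspo4.

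For both mutants against Wt, 0 of 30 position tests of Peg10, Sgce and Ppp1r9a passed the threshold, beside 0.892% of 119432 tests of all genes (edgeR), with 4 of 30 at an unadjusted p under 0.05 and a smallest adjusted p of 0.270. Of all genes, 11.8% to 18.2% per position had an unadjusted p under 0.05 in this contrast. DESeq2 called none of them. The Ppp1r9a log2 fold change was above 0 at 10 of 10 positions (0.06 to 0.32), which share their libraries and are not independent.

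The mutants were also compared with each other at every position, a comparison added after values had been seen, and here 4.76% of all tests passed. Depth moved with genotype in this comparison. Median UMIs per mesenchymal cell were 16339 to 29992 in E1C8Δ/Δ and 30605 to 43864 in E1C5Δ/Δ, without overlap. The part of depth in the differences was not tested. Of the 30 tests of Peg10, Sgce and Ppp1r9a, 2 passed and 10 had an unadjusted p under 0.05, beside 16.9% to 26.0% of all genes per position, and Asb4 passed at 1 of 10 positions. Peg10 and Sgce, which share a start region and a paternal bias, leaned in opposite directions. E1C8Δ/Δ was below E1C5Δ/Δ for Peg10 at 10 of 10 positions (log2 fold change -0.56 to -0.11) and above it for Sgce at 10 of 10 positions (0.12 to 0.66). These positions share their libraries and are not independent. Over all mesenchymal cells neither gene passed in this contrast (edgeR adjusted p = 0.147 for Peg10 and 0.0912 for Sgce).

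Peg10 passed in peripheral cells, with 139, 133 and 116 CPM in E1C8Δ/Δ against 168, 176 and 210 CPM in E1C5Δ/Δ and 209, 165 and 143 CPM in Wt. The mutants did not overlap, E1C8Δ/Δ lay below all Wt libraries, and E1C5Δ/Δ overlapped Wt. The log2 fold change was -0.56 ± 0.13 (SE) with an adjusted p of 0.0268 by edgeR. The adjusted p rose to between 0.0506 and 0.111 without any 1 of E1C5Δ/Δ replicates 2 and 3 and E1C8Δ/Δ replicates 1, 2 and 3, at log2 fold changes of -0.60 to -0.49.

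Sgce passed in proximal posterior cells of the Osr1 gate, with 30.8, 28.5 and 20.8 CPM in E1C8Δ/Δ against 16.1, 14.3 and 16.3 CPM in E1C5Δ/Δ and 21.7, 17.4 and 19.5 CPM in Wt. E1C5Δ/Δ lay below all Wt libraries, and E1C8Δ/Δ overlapped Wt. The log2 fold change was 0.66 ± 0.14 (SE) with an adjusted p of 0.0182 by edgeR. The adjusted p was 0.0528 to 0.129 without any 1 of E1C5Δ/Δ replicates 2 and 3 and E1C8Δ/Δ replicates 1 and 2, at log2 fold changes of 0.57 to 0.64. This gate held 12.2% to 13.3% of mesenchymal cells in E1C8Δ/Δ, 6.89% to 10.9% in E1C5Δ/Δ and 5.97% to 7.51% in Wt. The mutants did not overlap in this share, nor with gates that omit genes named as changed (12.5% to 13.5% and 7.49% to 11.3%), and its part in the Sgce difference was not tested.

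Asb4 passed in posterior cells, where 126 to 189 CPM in E1C8Δ/Δ stood against 53.9 to 92.5 CPM in E1C5Δ/Δ, a log2 fold change of 1.00 ± 0.22 (SE) with an adjusted p of 0.0293 by edgeR. The study names Asb4 as raised in the posterior cluster of both mutants, so no p of Asb4 between the mutants is independent of its choice. The adjusted p was 0.0578 to 0.195 without any 1 of E1C5Δ/Δ replicates 1 and 2 and E1C8Δ/Δ replicates 2 and 3, at log2 fold changes of 0.77 to 1.09. In Osr1-gate cells the Asb4 log2 fold change was 0.91 ± 0.26 (adjusted p = 0.0573), and in peripheral cells -0.15 ± 0.13 (adjusted p = 0.534).

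**Figure D5:**
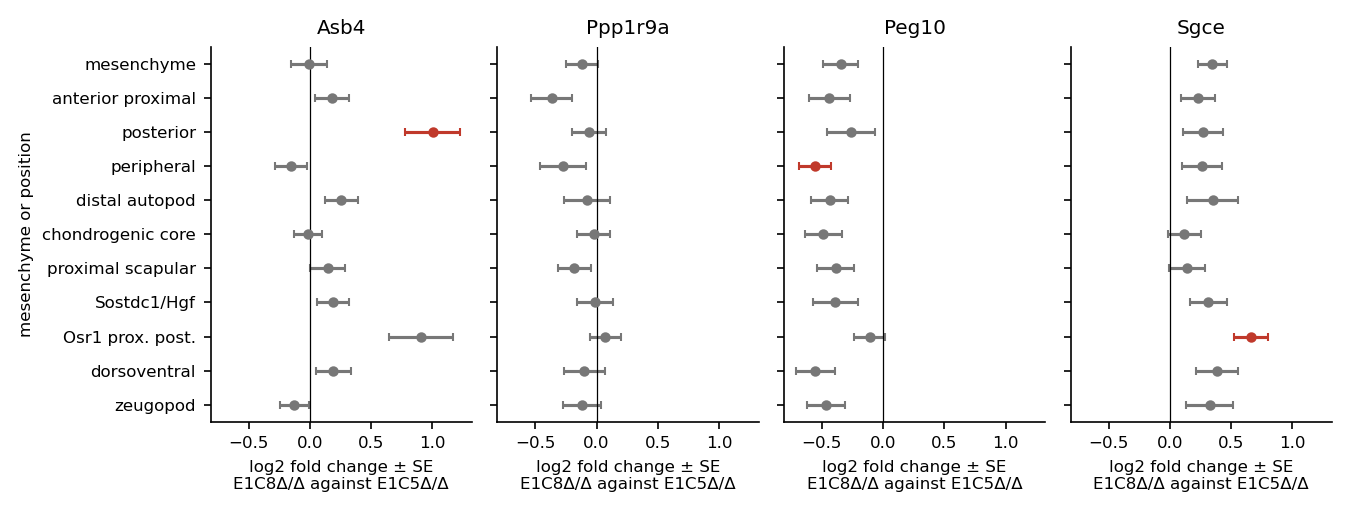
Log2 fold change ± SE of E1C8Δ/Δ against E1C5Δ/Δ for each gene over all mesenchyme and at each position, with values past an adjusted p of 0.05 in red. Peg10 lies below 0 and Sgce above 0 at all 10 positions, which share their libraries and are not independent. The values in red are Asb4 in posterior, Peg10 in peripheral and Sgce in Osr1-gate cells.

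Of 17 genes listed along the domain, the members included, 14 passed the filter on low counts in the mesenchyme (all but Tfpi2, Gngt1 and Pon1). Of the 10 that are not members, 0 were called for both mutants against Wt by edgeR, beside 2.07% of all genes. Of these 10, 1 had an unadjusted p under 0.05 and DESeq2 called 1. Their median log2 fold change was 0.07 against -0.01 over all genes. That gene, Col1a2, which encodes a chain of type I collagen, had 188 to 295 CPM in Wt and 110 to 252 CPM in the mutants (-0.43 ± 0.14, adjusted p = 0.122). The E1C5Δ/Δ libraries, at 110, 136 and 149 CPM, lay below all Wt libraries, and E1C8Δ/Δ overlapped Wt. Col1a2 was the 1 gene of these 10 called in E1C5Δ/Δ against Wt (-0.75 ± 0.16, edgeR adjusted p = 0.0468, beside 1.4% of all genes) and in E1C8Δ/Δ against E1C5Δ/Δ (0.62 ± 0.16, adjusted p = 0.0349, beside 9.49%), and none was called in E1C8Δ/Δ against Wt. Leaving out single libraries gave adjusted p of 0.0429 to 0.178 for the first of these Col1a2 calls and 0.0133 to 0.151 for the second. The first was not called without Wt replicate 3 or without any 1 mutant library, and the second was not called without any 1 mutant library. In the first contrast sex moved with genotype, and its part in the Col1a2 difference was not tested. Casd1 measured 107 to 126 CPM in Wt and 108 to 176 CPM in the mutants (0.23 ± 0.12, adjusted p = 0.331). Dync1i1, a dynein intermediate chain gene, had a log2 fold change of 0.31 ± 0.16 (adjusted p = 0.309). The others were Calcr (0.50 ± 0.41), Gng11 (0.05 ± 0.14), Bet1 (0.10 ± 0.09), Pon3 (-0.25 ± 0.17), Pon2 (0.11 ± 0.11), Pdk4 (0.03 ± 0.37) and Slc25a13 (0.01 ± 0.09).

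Of 46 imprinted genes listed from other domains, 41 passed the filter, with a median log2 fold change of 0.01 and 22 values above and 19 below 0, and 1 was called for both mutants, beside 2.07% of all genes. Grb10, an adaptor that restrains growth factor signalling, fell by 0.37 ± 0.07 on the log2 scale (352 to 390 CPM in Wt, 245 to 331 CPM in the mutants, without overlap; edgeR adjusted p = 0.0289). The adjusted p of Grb10 was 0.233 with embryo sex in the fit, and 0.0580 to 0.0832 without any 1 of Wt replicates 1, 2 and 3, E1C5Δ/Δ replicate 1 and E1C8Δ/Δ replicates 1, 2 and 3. H19, a maternally expressed noncoding RNA, ranged from 854 to 1041 CPM in Wt and from 652 to 1065 CPM in the mutants (-0.27 ± 0.10, adjusted p = 0.194). The growth factor gene Igf2 (0.05 ± 0.11), the cell cycle inhibitor gene Cdkn1c (-0.20 ± 0.14), Dlk1 (0.07 ± 0.18), Meg3 (-0.02 ± 0.14), Peg3 (-0.00 ± 0.12) and Mest (-0.11 ± 0.10) had adjusted p of 0.479 to 0.991.

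In the single contrasts by edgeR, 4 of the 41 were called in E1C8Δ/Δ against Wt, beside 8.86% of all genes. H19 (-0.45, adjusted p = 0.0427), Igf2r (-0.37, adjusted p = 0.0300) and Grb10 (-0.49, adjusted p = 0.00874) were lower on the log2 scale, and Blcap (0.44, adjusted p = 0.0384) was higher. In E1C5Δ/Δ against Wt the 1 call was Nap1l5, which was higher (0.86, adjusted p = 0.0225), beside 1.4% of all genes. In E1C8Δ/Δ against E1C5Δ/Δ there were 4 calls beside 9.49% of all genes, with Plagl1 (0.85, adjusted p = 0.0164), Blcap (0.49, adjusted p = 0.0252) and H13 (0.33, adjusted p = 0.0440) higher and Nap1l5 (-0.59, adjusted p = 0.0413) lower. These counts lay near the shares over all genes and are not a result about imprinted genes. The fits held no term for sex, while every Wt library was male and most libraries of each mutant were female. Sex therefore moved with genotype in the contrasts against Wt, and its part in these calls was not tested. Igf2r, Blcap, Nap1l5, Plagl1 and H13 were named after their values were seen, and their dependence on single libraries is not reported here. H19 was not called in E1C8Δ/Δ against Wt without any 1 library of Wt or of E1C8Δ/Δ or without E1C5Δ/Δ replicate 1 (adjusted p of 0.0538 to 0.175).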

How the data were processed

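For each of 9 libraries the authors deposited counts, whole UMIs per gene and barcode from Cell Ranger 6.0.1 on mm10, as deposited without normalization or filters. The submitters' notes also name Seurat 4.3.0.1. Replicates were not pooled.

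The study's limits on cells were applied, namely over 2500 genes, under 200000 UMIs and a mitochondrial share under 10%. Doublets (12 to 2068 per library) were called from the share of artificial doublets among nearest neighbours, at 0.8% per 1000 barcodes. At most 0.497% of the smaller library's barcodes recurred in another library. Positions were the best mean marker score above 0.5, in libraries with at least 20 such cells. These thresholds were set after marker distributions had been seen.

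UMIs were summed per library and gate, at 15137086 to 240510217 UMIs in tested mesenchymal genes, and tested with edgeR 4.0.16 in R 4.3.3 (TMM, filterByExpr, quasi-likelihood) in 1 fit of all libraries per gate. DESeq2 1.42.0 was an alternative. Features on X or Y (1809) and unplaced ones (131) were left out. P-values across positions and lineages, from exact sign flips (Python 3.11.15, numpy 2.4.6, scipy 1.17.1), were adjusted over all genes with at least 10 CPM rather than over the members. Both procedures were tested on simulated data. Libraries were biologically independent embryos per the study's methods.

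Genes named were the members, the domain list, the imprinted genes of other domains past the threshold with 7 named in any case, the 3 genes most like each member (1 of them is not reported here), and 4 genes that the study names beside Asb4. Members and lists were chosen with earlier results of these data known. Alternatives covered the test, normalization, low-count filter, doublets, mixed-lineage cells, sex, replicate block, thinning, gate genes and each library left out. RefSeq promoter windows matched Asb4 and Ppp1r9a.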

Additional observations from a re-analysis of the deposited data

Results flagged for a closer look

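These 3 results stood out because the levels in the 2 mutants differed by a direct test of E1C8Δ/Δ against E1C5Δ/Δ at a position (edgeR quasi-likelihood test, Benjamini-Hochberg adjustment over all genes of the position). The comparison was added after values had been seen, and 4.76% of the tests of all genes passed in it. Peg10 in peripheral cells differed by -0.56 ± 0.13 (SE, log2; adjusted p = 0.0268), where 743 of 12361 genes passed. Sgce in proximal posterior cells of the Osr1 gate differed by 0.66 ± 0.14 (adjusted p = 0.0182), where 681 of 12490 genes passed. Asb4 in posterior cells differed by 1.00 ± 0.22 (adjusted p = 0.0293), where 384 of 11511 genes passed. The study chose Asb4 for changes in both mutants, so its p is not independent of that choice. Each mutant had 2 female libraries and 1 male library, and with sex in the fit the adjusted p were 0.0400, 0.0137 and 0.0362. Each call was lost when certain single libraries were left out, and depth was lower in every E1C8Δ/Δ library than in every E1C5Δ/Δ library. Against Wt, Peg10 in peripheral cells had an adjusted p of 0.0854 in E1C8Δ/Δ and 0.906 in E1C5Δ/Δ. For Sgce in Osr1-gate cells these were 0.141 and 0.661.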

How the results depend on the processing

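Of 409 values of 33 results under alternatives, 354 were counted as unchanged and 6 turned their direction. The rest crossed the threshold or moved further. The differences of the genotype effect between positions for Peg10, Sgce and Ppp1r9a entered only as counts of calls. Their turns of direction given above are therefore not among the 6, which are all shares of cells. A tested value was unchanged if it kept its direction and side of the threshold. A value without a test was unchanged if it moved by less than 1 SD, and a count if it stayed close to the main count. No call on Peg10, Sgce or Ppp1r9a for both mutants against Wt arose in the mesenchyme or at positions under any alternative run. Between the mutants at positions, the count of 2 calls was 9 without a filter on low counts, 5 with DESeq2, 1 with the replicate block and 0 to 3 with a library left out. The log2 fold change of Peg10 in peripheral cells was -0.56 with the replicate block (adjusted p = 0.0541) and -0.47 with gates on thinned cells (0.0582), and -0.60 to -0.49 with a library left out. For Sgce in Osr1-gate cells it was 0.66 on thinned sums (0.0541), and 0.57 to 0.81 with a library left out. For Asb4 in posterior cells it was 0.90 with doublets kept (0.0758), 0.89 on thinned sums (0.0718) and 0.70 with gates on thinned cells (0.0902), and 0.77 to 1.17 with a library left out. Of the other imprinted genes, 1 was called for both mutants against Wt, 3 with DESeq2 and 0 with embryo sex or the replicate block in the fit (Grb10 adjusted p = 0.0823 with the block), and 0 to 2 with a library left out. The cause of these shifts was not tested. Position differences of Peg10, Sgce and Ppp1r9a gave 27 calls adjusted over members and positions, 25 over all genes and 0 in Wt alone, where 3 libraries allow no p below 0.25. Shares of cells with a UMI turned direction for Peg10 (-3.02 percentage points without thinning, -0.971 with doublets kept, -0.709 without Wt replicate 3, -1.20 without E1C5Δ/Δ replicate 3, and up to 2.39 with a library left out), Sgce (0.884 without Wt replicate 3, in a range from -3.19, and -9.13 without thinning) and Ppp1r9a (-3.65 without thinning). Same-numbered libraries of different genotypes did not deviate together (r = -0.15 to 0.09). Differently numbered libraries reached an r of 0.26, for Wt replicate 1 and E1C5Δ/Δ replicate 3. With 3 libraries per genotype, these values cannot decide whether libraries shared a run.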
